A study of Mus musculus with 12 samples.

Results

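Class I myosins are single-headed motors that link membranes to actin filaments and use calmodulin as their light chain. The 5 class I myosin genes described here, Myo1c, Myo1d, Myo1e, Myo1f and Myo1g, were picked by name from 35675 annotated genes, with results of these same libraries known. Myo1c takes part in membrane traffic and in cultured mouse adipocytes it binds the small GTPase RalA during delivery of glucose transporters to the cell surface. Myo1d is known from myelinating oligodendrocytes. Myo1e and Myo1f are the long-tailed forms, whose tails end in an SH3 domain, and Myo1f and Myo1g are best known from leukocytes.

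RNA was sequenced from tdTomato-positive cells with large forward scatter, sorted from the spinal cord of single mice at postnatal day 10. The 3 genotypes were RalA cKO (CnpCre:RalAflox/flox), RalAB cKO (CnpCre:RalAflox/flox:RalBflox/flox) and control (CnpCre), with 4 mice each, and every mouse, controls included, also carried the Rosa26-StopFlox-TdTomato reporter. Cre came from the Cnp locus, which is active in oligodendrocyte-lineage and Schwann cells, and the sort enriched oligodendrocytes without purifying them. RalA and RalB are small GTPases whose effector, the exocyst, holds incoming vesicles at the cell surface before they fuse.

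The libraries held 10928206 to 15440437 estimated counts each. A list of 10 oligodendrocyte markers, among them Mbp, Mag and Mog, summed to 104000 to 120500 CPM (a count scaled to the size of its library, with TMM factors) in RalA cKO, 91530 to 118100 CPM in RalAB cKO and 89220 to 115800 CPM in control libraries. A list of 20 microglia and macrophage markers summed to 212 to 355.5 CPM in RalA cKO, 1412 to 2600 CPM in RalAB cKO and 319.9 to 711.3 CPM in control libraries, so the RalAB cKO libraries lay above both other groups. By a chi-square of counts over all genes between pairs of libraries, control 1 and RalAB cKO 1 differed most from the other libraries of their groups. In marker sums, control 3 had the most microglia and macrophage, precursor, astrocyte and neuron signal of the control libraries.

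Among the members, the RalAB cKO libraries held less Myo1e and more Myo1f than either of the other groups, without overlap. Myo1e averaged 34.1 ± 6.27 CPM in RalAB cKO and 99.8 ± 17.4 CPM in control libraries, and Myo1f averaged 20.4 ± 7.23 CPM in RalAB cKO and 2.69 ± 1.40 CPM in control libraries (SD, n = 4 each). Myo1d, the most abundant member, kept within 1.28-fold between any pair of group means in the fit. Myo1c and Myo1g were lowest in RalA cKO and highest in RalAB cKO. In bulk RNA, fewer cells of a type and less RNA per cell cannot be told apart, which holds for every value given here.

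The stretches around the annotated RefSeq starts (GRCm38.p6) of the members that stood furthest apart, Myo1e, Myo1f and Myo1g, are shown from 120 bases before to 30 bases after the start, 5′ to 3′ on the strand of the gene. Capitals mark the letters AGGAAGT or their reverse complement, a form of the site of ETS factors such as PU.1, which was chosen after the sequences had been read.
Myo1e, chr9:70207230-70207379, plus strand: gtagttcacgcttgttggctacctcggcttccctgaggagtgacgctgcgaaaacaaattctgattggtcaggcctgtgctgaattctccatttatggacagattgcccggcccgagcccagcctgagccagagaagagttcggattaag
Myo1f, chr17:33555587-33555736, plus strand: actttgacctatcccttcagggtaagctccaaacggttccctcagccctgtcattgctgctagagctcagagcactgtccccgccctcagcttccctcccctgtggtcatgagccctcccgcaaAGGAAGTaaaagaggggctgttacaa
Myo1g, chr11:6520929-6521078, minus strand: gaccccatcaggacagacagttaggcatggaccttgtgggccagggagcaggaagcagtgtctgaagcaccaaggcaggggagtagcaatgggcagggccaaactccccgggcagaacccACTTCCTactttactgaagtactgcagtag

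The match began at base 5 of the Myo1f transcript on the strand of the gene and at base 1 of the Myo1g transcript on the opposite strand. AGGAAGT was found on either strand in 9.27% of 32544 RefSeq windows of 300 bases, from 250 bases before to 50 after a start. A second motif, GAGGAA, the core of the PU.1 site, lay on the Myo1f strand from base 31, just past the stretch shown, and on the opposite strand in 2 of the 3 windows of Myo1c. It was present in 28.1% of the 32544 windows and overlapped no match of the first motif in these genes. Of the 2 Myo1c windows, 1 lay at the start of transcript Myo1c-203, which had 0 counts in every group. The other, chr11:75655765-75656064, had no annotated transcript start within 100 bases of its RefSeq start at 75656015. Transcript Myo1c-204 does start inside that window, further upstream at 75655873. It held 22.1% of Myo1c counts in control and 0 in both mutants. Neither motif was in the 300-base window of Myo1e. CG dinucleotides numbered 16 in the Myo1e window, 5 in that of Myo1f and 2 in that of Myo1g, against a median of 7 over all windows. RefSeq windows were found for 4 of the 5 members, Myo1d being the other.

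Levels can be set side by side between genes in TPM, the deposited transcript level scaled by length. In control libraries Myo1d (chr11:80482126-80780025, minus strand) had the highest level at 63.4 ± 7.85 TPM and Myo1e (chr9:70207350-70399766, plus strand) came next at 38.5 ± 5.22 TPM, with no overlap between them. Myo1c (chr11:75650504-75673910, plus strand) followed at 2.03 ± 0.73 TPM, Myo1f (chr17:33555707-33607764, plus strand) at 1.32 ± 0.753 TPM and Myo1g (chr11:6506548-6520965, minus strand) at 0.865 ± 0.417 TPM. The ranges of these last 3 genes overlapped one another in control libraries.

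RalA cKO libraries gave 60.9 ± 2.17 TPM for Myo1d, 36.8 ± 2.24 TPM for Myo1e, 1.87 ± 0.812 TPM for Myo1f, 1.30 ± 0.280 TPM for Myo1c and 0.374 ± 0.185 TPM for Myo1g. In that group Myo1d and Myo1e again stood clear of each other and of the rest, Myo1f overlapped Myo1c, and Myo1g lay below both. The order was Myo1d at 49.5 ± 4.49 TPM, Myo1e at 12.2 ± 2.06 TPM, Myo1f at 8.70 ± 2.49 TPM, Myo1c at 3.78 ± 0.991 TPM and Myo1g at 1.91 ± 0.889 TPM in RalAB cKO libraries. There Myo1d was clear of the rest, the ranges of Myo1e (10.7 to 15.2 TPM) and Myo1f (6.05 to 11.3 TPM) met, and so did those of Myo1c (2.77 to 4.89 TPM) and Myo1g (1.31 to 3.23 TPM).

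The 5 members together summed to 101.3 ± 1.62 TPM in RalA cKO, 76.1 ± 7.49 TPM in RalAB cKO and 106 ± 11.9 TPM in control libraries. Myo1e made up 36.4% ± 2.09 of that sum in RalA cKO, 15.99% ± 1.26 in RalAB cKO and 36.2% ± 1.53 in control libraries. Myo1f made up 1.84% ± 0.797 in RalA cKO, 11.5% ± 3.56 in RalAB cKO and 1.29% ± 0.895 in control libraries. The share of Myo1d was 60.2% ± 2.33 in RalA cKO, 65.1% ± 2.60 in RalAB cKO and 59.7% ± 1.58 in control libraries, which is a smaller spread between genotypes than that of Myo1e or Myo1f. The ratio of Myo1d to Myo1e in TPM was 1.66 ± 0.148 in RalA cKO, 4.09 ± 0.332 in RalAB cKO and 1.65 ± 0.0977 in control libraries (SD, n = 4 each).

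**Figure D1:**
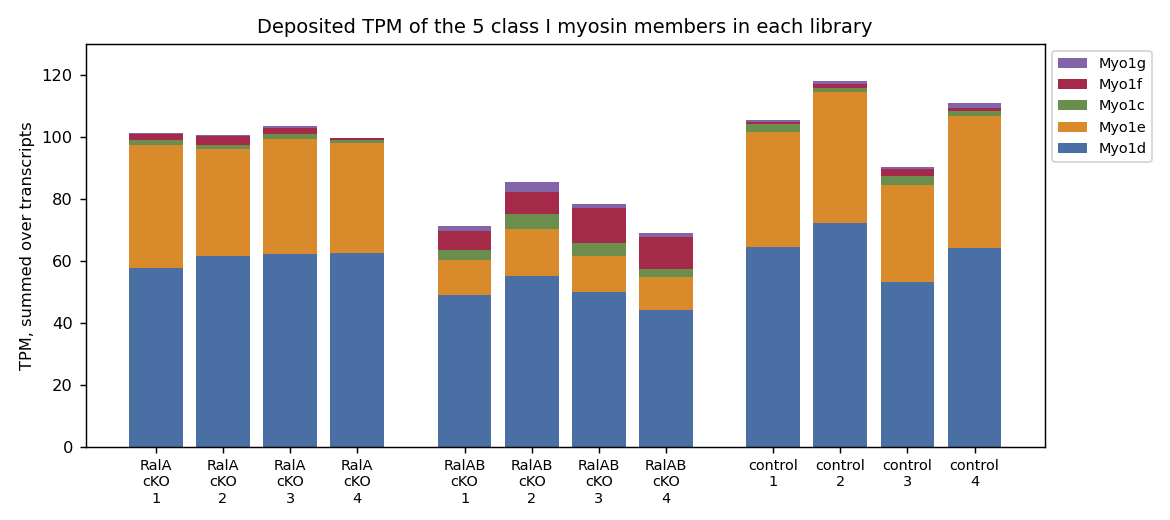
Stacked bars give the deposited TPM, summed over transcripts, of the 5 class I myosin members in each of the 12 libraries, with RalA cKO on the left, RalAB cKO in the middle and control on the right. The RalAB cKO bars reach 69.1 to 85.5 TPM, with a smaller Myo1e part and a larger Myo1f part, against 90.1 to 118 TPM in control libraries.

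The 3 comparisons were fitted over all 12 libraries with edgeR's quasi-likelihood test, and 13456 genes passed its filter on low counts. At an adjusted p under 0.05 the fit called 374 genes for RalA cKO against control (2.78% of those tested), 2478 (18.4%) with RalAB cKO in its place and 1551 in RalAB cKO against RalA cKO (11.5%). Of the 5 members, 0 were called in RalA cKO against control, beside 1.71% of all genes called higher and 1.07% lower. There 2 had an unadjusted p under 0.05 in edgeR. DESeq2 and limma-voom, with and without quality weights, each called 0 of them. Over all genes DESeq2 called 1083 and the quality weights 1736 in that comparison. RalAB cKO against control had 1 called higher, beside 9.39% of all genes, and 1 called lower, beside 9.02%. RalAB cKO against RalA cKO had 3 called higher, beside 7.03% of all genes, and 1 called lower, beside 4.50%. In RalAB cKO against control DESeq2 called 2, limma-voom 2 and limma-voom with quality weights 3 of the 5, and set against RalA cKO they called 5, 4 and 5. Over all 13456 genes the quality weights called 4061 and 2560 in these comparisons, beside 2478 and 1551 in edgeR. The totals of DESeq2 and of limma-voom without weights there are not given, so their counts of members have no share beside them. Because the members were chosen with these contrasts known, their folds and their counts under any threshold, in any tool, are descriptions. They are no test of the members, and no p of a single member is given. Libraries of the groups did not overlap for 0 members in RalA cKO against control, for 2 when RalAB cKO was set against control and for 5 between the mutants, beside 11.4%, 19.2% and 17.3% of all genes. All 5 passed the filter, but Myo1g exceeded the filter's level of 0.797 CPM in only 1 of 4 RalA cKO libraries, against all 4 RalAB cKO and all 4 control libraries.

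Myo1e had 27.8, 42.6, 34.0 and 31.9 CPM in the RalAB cKO libraries, against 103, 108, 74.6 and 114 CPM in the control libraries. Every RalAB cKO library lay below every control library, and the fitted difference was -1.55 ± 0.14 on the log2 scale (± SE), or 2.93-fold lower in RalAB cKO. The RalA cKO libraries had 117, 106, 99.2 and 112 CPM. They overlapped the control libraries, with a log2 fold change of 0.12 ± 0.14, which became -0.01 without control 3, the control library with the least Myo1e. RalAB cKO against RalA cKO gave -1.67 ± 0.15, or 3.19-fold lower in RalAB cKO, again without overlap. Across all 26 alternative settings the difference between RalAB cKO and control stayed within -1.68 to -1.44.

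Markers of the oligodendrocyte lineage were looked at beside Myo1e. In RalAB cKO against control 9.39% of all genes tested were called higher and 9.02% lower. Between the mutants 7.03% were called higher and 4.50% lower in RalAB cKO. Newly formed oligodendrocyte markers summed to 6024 to 6422 CPM in RalAB cKO and 5500 to 6756 CPM in control libraries, with 1 of 6 called lower and 0 higher. The oligodendrocyte list had 5 of 10 called lower and 0 higher in RalAB cKO against control, with a median log2 fold change of -0.45. Oligodendrocyte precursor markers summed to 96.9 to 282 CPM in RalAB cKO and 340 to 587 CPM in control libraries, and 4 of 5 were called lower, with a median log2 fold change of -1.40. In RalAB cKO against RalA cKO 3 of 6 newly formed markers were called higher, with sums of 6024 to 6422 CPM in RalAB cKO and 5006 to 5750 CPM in RalA cKO libraries, while 5 of 10 oligodendrocyte markers and 1 of 5 precursor markers were called lower.

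Astrocyte and neuron markers were also lower in RalAB cKO than in control libraries, where 9.02% of all genes were called lower. The 7 astrocyte markers summed to 274.5 to 303.1 CPM in RalAB cKO and 355.4 to 593.9 CPM in control libraries, and 5 were called lower and 0 higher. The 8 neuron markers summed to 22.9 to 36.3 CPM in RalAB cKO and 60.4 to 127.3 CPM in control libraries, and of the 7 tested 3 were called lower and 0 higher. The part of the lineage, astrocyte and neuron shifts in the Myo1e difference was not tested.

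Myo1d had 146.5, 188, 181 and 159.8 CPM in the RalAB cKO libraries, against 216, 219, 154 and 208 CPM in the control libraries. These groups overlapped through control 3, and the log2 difference was -0.24 ± 0.12. RalA cKO libraries had 204, 225, 202 and 235 CPM, which overlapped the control libraries at a log2 difference of 0.12 ± 0.12, or 0.00 without control 3. All 4 RalAB cKO libraries lay below all 4 RalA cKO libraries, by -0.36 ± 0.12 on the log2 scale. Myo1d was the member with the most counts, 29874 over the 12 libraries.

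Myo1c had 2.95, 3.10, 2.79 and 2.49 CPM in the RalA cKO libraries, 6.01, 8.003, 8.39 and 7.30 CPM in the RalAB cKO libraries, and 5.70, 3.09, 6.50 and 3.82 CPM in the control libraries. The control libraries split into a higher and a lower pair and overlapped both mutants. The log2 fold change was -0.76 ± 0.25 in RalA cKO against control and 0.63 ± 0.24 in RalAB cKO against control. Between the mutants it was 1.39 ± 0.25, or 2.62-fold higher in RalAB cKO, without overlap. With offsets for transcript length the difference between RalAB cKO and control was 1.03.

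**Figure D2:**
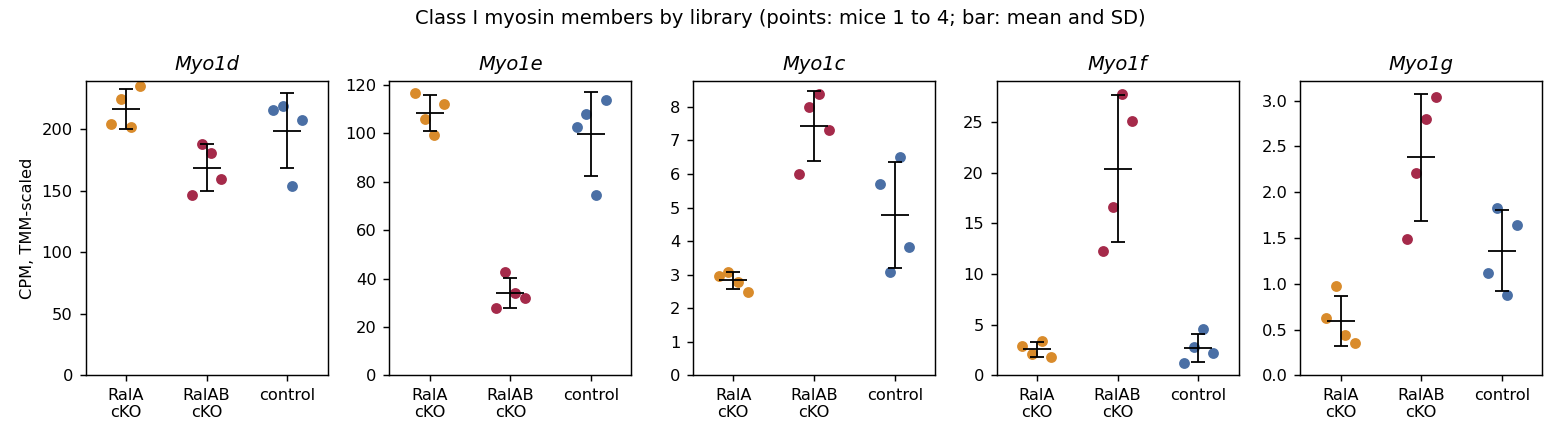
Each panel gives the TMM-scaled CPM of 1 member (vertical axis, from 0), with a point for each of 4 mice and a bar for the mean and SD, in RalA cKO, RalAB cKO and control from left to right. Myo1e is lowest and Myo1f highest in the RalAB cKO libraries, and Myo1d spans 146.5 to 234.8 CPM over all libraries.

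Myo1f, which in mouse leukocytes serves adhesion and migration, had 12.3, 16.6, 27.7 and 25.1 CPM in the RalAB cKO libraries, against 1.24, 2.78, 4.56 and 2.18 CPM in the control libraries. Each RalAB cKO library exceeded each control library, and the fitted difference was 2.91 ± 0.35 on the log2 scale, or 7.51-fold higher in RalAB cKO. The RalA cKO libraries had 2.86, 2.12, 3.404 and 1.85 CPM, inside the range of the control libraries. Their log2 difference from control was -0.09 ± 0.37, with values from -0.34 to 0.64 over 26 alternative settings, so no direction can be given. RalAB cKO against RalA cKO gave 3.00 ± 0.36, or 7.99-fold higher in RalAB cKO, without overlap.

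Myo1g, a haematopoietic membrane motor, had 1.49, 2.21, 2.80 and 3.04 CPM in the RalAB cKO libraries, against 1.11, 1.82, 0.875 and 1.64 CPM in the control libraries. The 2 groups overlapped, and the log2 difference was 0.82 ± 0.38. The RalA cKO libraries had 0.626, 0.973, 0.436 and 0.356 CPM, of which 1 lay inside the control range and 3 below it, with a log2 difference of -1.18 ± 0.42. Between the mutants the libraries did not overlap and the log2 difference was 1.99 ± 0.42, or 3.98-fold higher in RalAB cKO. These values rest on 28 counts in RalA cKO, 122 in RalAB cKO and 72 in control, summed over 4 libraries each.

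**Figure D3:**
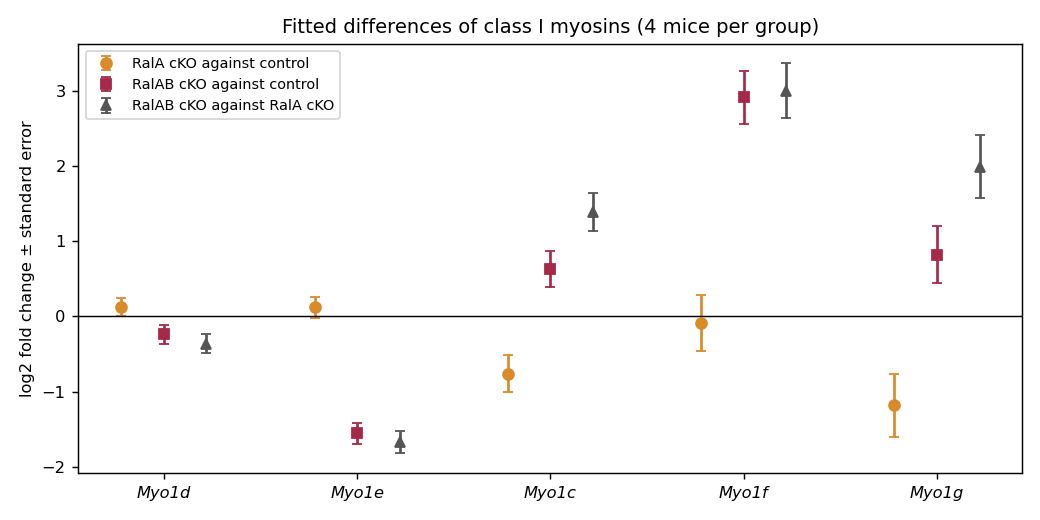
Points give the fitted log2 fold change (vertical axis) and bars its standard error for the 5 members. Circles set RalA cKO against control, squares RalAB cKO against control, and triangles the mutants against each other, with RalAB cKO on top. Myo1f reaches 2.91 and Myo1e -1.55 in RalAB cKO against control, while Myo1d stays between -0.36 and 0.12 in the 3 comparisons.

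Markers of microglia and macrophages were looked at beside both leukocyte members. In RalAB cKO against control 19 of the 20 listed genes were called higher, beside 9.39% of all genes. Their median log2 fold change was 1.98 against -0.01 for all genes tested. Against RalA cKO all 20 were called higher, beside 7.03% of all genes, with a median of 2.80 against -0.03. In RalA cKO against control edgeR called 3 lower and 0 higher, beside 1.07% and 1.71% of all genes. The median was -0.74 against -0.02, while the log2 fold change of Myo1f there was -0.09 ± 0.37. In that comparison 16 of the 20 had an unadjusted p under 0.05 in edgeR, and DESeq2 called 8, limma-voom 1 and limma-voom with quality weights 12. Over all genes DESeq2 called 1083 there and quality weights 1736, against 374 in edgeR. None of the 20 was at 0 in any group.

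Of the lymphocyte and granulocyte markers 0 passed the filter on low counts, so neither list was tested. The 11 lymphocyte markers summed to 0.268 to 0.873 CPM in RalA cKO, 1.28 to 1.88 CPM in RalAB cKO and 0.262 to 0.875 CPM in control libraries, with Cd3e and Ncr1 among those at 0 in every group. Low as these sums were, every RalAB cKO library lay above every library of the other groups, and the part of this in the values of Myo1f and Myo1g was not tested. The 8 granulocyte markers summed to 0.380 to 0.799 CPM in RalAB cKO and 0 to 0.625 CPM in control libraries, with S100a9, Ly6g, Elane and Camp at 0 in every group. The 6 border macrophage markers summed to 4.08 to 5.42 CPM in RalAB cKO and 2.10 to 10.4 CPM in control libraries, which overlapped. Of these 6, 2 were tested and edgeR called 0, with 0 at an unadjusted p under 0.05 and 0 called by DESeq2 or limma-voom, and none was at 0 in any group.

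Set against the summed counts of the 20 microglia and macrophage markers, Myo1f gave 0.852 ± 0.204 counts per 100 marker counts in RalA cKO, 0.963 ± 0.0995 in RalAB cKO and 0.506 ± 0.108 in control libraries (SD, n = 4 each). The RalAB cKO range, 0.868 to 1.10, lay above the control range, 0.389 to 0.642, and the RalA cKO range, 0.552 to 1.001, overlapped both. By the same measure Myo1g gave 0.221 ± 0.163 in RalA cKO, 0.114 ± 0.00744 in RalAB cKO and 0.292 ± 0.113 in control libraries. The RalAB cKO range of Myo1g, 0.105 to 0.122, lay just below its control range, 0.123 to 0.352, and control 3 alone was near the RalAB cKO values. Control 3 held 14 counts of Myo1g. Relative to these markers Myo1f was thus higher and Myo1g lower in RalAB cKO than in control libraries. These ratios reuse the values that chose the members and have no test.

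**Figure D4:**
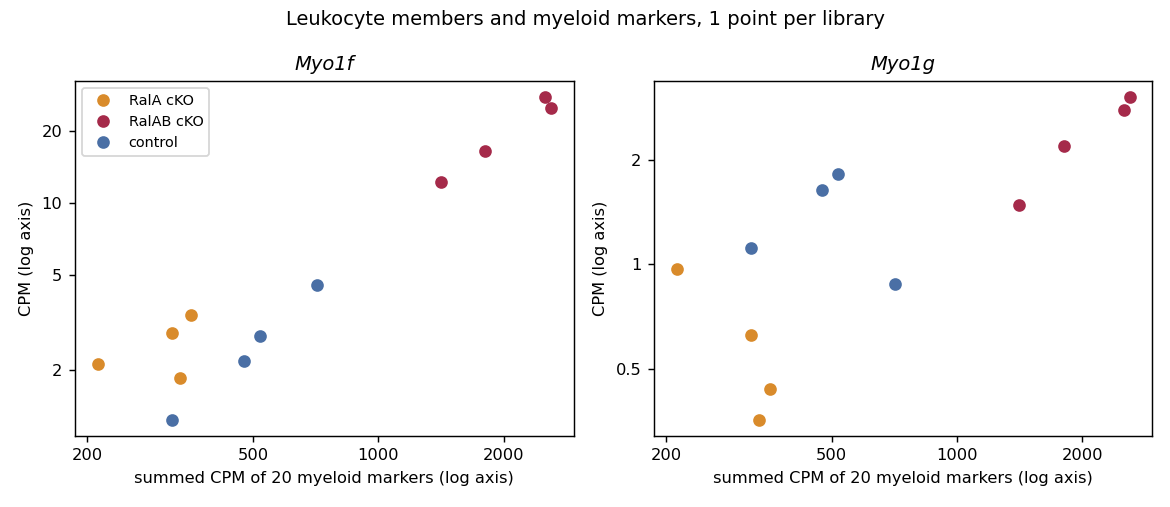
Each point is a library, with the summed CPM of 20 microglia and macrophage markers on a horizontal log axis and the CPM of Myo1f (left) or Myo1g (right) on a vertical log axis. The 4 RalAB cKO libraries lie at 1412 to 2600 summed marker CPM with the highest Myo1f values, while control 2 and control 4 have more Myo1g than RalAB cKO 1.

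Counts of Myo1d and Myo1e came almost wholly from protein-coding transcripts. Those held 99.8% of Myo1d counts in each genotype and 99.4%, 97.0% and 95.2% of Myo1e counts in RalA cKO, RalAB cKO and control. For the scarce members the split among transcripts, which is an estimate, was unsteady. Transcript Myo1c-201 took 64.8% to 98.3% of Myo1c counts in RalA cKO libraries, 82.1% to 96.7% in RalAB cKO libraries and from 0% to 100% in control libraries, where Myo1c-204, also a coding transcript, took the rest of the coding counts, so that coding transcripts held 85.0% to 100% of Myo1c there. Coding transcripts took 78.3% to 100% of Myo1f counts in RalA cKO libraries and 97.0% to 100% in RalAB cKO libraries, against close to 0% in control 1 and control 4 and 100% in control 2 and control 3. Coding transcripts took 78.8% to 92.6% of Myo1g counts in RalAB cKO libraries, but from 0% to 100% in RalA cKO and in control libraries. With coding transcripts alone, the log2 difference of Myo1f in RalAB cKO against control was 3.42, and that of Myo1g was -1.84 in RalA cKO against control and 3.02 in RalAB cKO against RalA cKO.

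Genes with the most similar pattern were sought among protein-coding genes by the root mean square difference of log2 CPM over the 12 libraries, each gene centred on its own mean. By this measure a gene with no change lies 0.22 from Myo1d, 0.79 from Myo1e, 1.45 from Myo1f, 0.83 from Myo1g and 0.61 from Myo1c. The nearest genes were picked for their small differences, so their distance below the median is no test. Nearest to Myo1d were Zdhhc9, a palmitoyltransferase subunit, at 0.04, and Fa2h, which hydroxylates the fatty acids of myelin lipids, and Emc7 of the endoplasmic reticulum membrane complex, both at 0.08, where the median gene differed by 0.31. Nearest to Myo1e, all at 0.20 against a median of 0.81, were Apod, a lipid carrier of mature oligodendrocytes, Aif1l, an actin-binding protein, and Pla2g16, a phospholipase. Apod averaged 1146 CPM in RalA cKO, 418 CPM in RalAB cKO and 1243 CPM in control libraries.

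Myo1f was nearest to Tyrobp, the signalling adaptor of myeloid receptors, at 0.27, and to Spi1, which encodes PU.1, and Fcgr3, an Fc receptor, both at 0.32, against a median of 1.47. Spi1 averaged 2.80 CPM in RalA cKO, 19.4 CPM in RalAB cKO and 3.78 CPM in control libraries, and both Spi1 and Tyrobp belong to the microglia and macrophage list. Nearest to Myo1g were Ptk2b, a focal adhesion kinase relative, at 0.28, Sla, a Src-like adaptor, at 0.31 and Syk, an immune receptor kinase, at 0.36, against a median of 0.88. For Myo1c they were Plxnb2, a semaphorin receptor, at 0.20, Gmip, a GTPase-activating protein, at 0.23 and Rab11fip5, a Rab11 effector, at 0.24, against a median of 0.66.

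Among the class I genes that are not members, Myo1a, the intestinal brush border form, had 26 counts and Myo1h 5 counts over all 12 libraries, and neither passed the filter.

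Other unconventional myosins were called in both directions in RalAB cKO against control: of 11 tested, 3 rose and 3 fell, beside 9.39% of all genes called higher and 9.02% lower. Their median log2 fold change was 0.23, against -0.01 for all genes. Myo18a rose to 270.5, 341, 322 and 309.9 CPM in RalAB cKO, against 208, 162, 179.5 and 211 CPM in control libraries (log2 0.71 ± 0.12, edgeR adjusted p = 0.000831). Myo7a, known from hair cells and the retina, had 10.6, 10.0, 13.8 and 13.5 CPM in RalAB cKO, against 6.03, 4.36, 7.13 and 5.18 CPM in control libraries (log2 1.07 ± 0.21, edgeR adjusted p = 0.00274). It also rose in RalAB cKO against RalA cKO, by 1.27 ± 0.22 (edgeR adjusted p = 0.000761).

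Myo16, a brain-enriched motor, had 4.45, 4.98, 4.40 and 3.73 CPM in RalAB cKO, against 10.2, 8.49, 11.1 and 5.91 CPM in control libraries (log2 -1.02 ± 0.23, edgeR adjusted p = 0.00643). Myo5c, which moves secretory vesicles in exocrine cells, had 2.52, 2.78, 2.64 and 2.20 CPM in RalAB cKO, against 5.50, 6.27, 4.50 and 6.37 CPM in control libraries (log2 -1.15 ± 0.28, edgeR adjusted p = 0.00933). For these 4 genes the groups did not overlap and the RalAB cKO against control call held in every alternative setting in which the gene was tested. Myo9b (0.40 ± 0.12) and Myo10 (-0.74 ± 0.24), named here after their values were seen, were called too, but lost the call in 7 and 12 of 26 settings, which included leaving out any 1 of 6 libraries for Myo9b and any 1 of 7 for Myo10. In RalA cKO against control edgeR called 0 of the 11, beside 2.78% of all genes. DESeq2 called 2, limma-voom 0 and limma-voom with quality weights 2. Over all 13456 genes DESeq2 called 1083 and the quality weights 1736 there. In edgeR 3 of the 11 had an unadjusted p under 0.05: Myo16 (log2 -0.88 ± 0.23), Myo5c (-0.81 ± 0.28) and Myo18a (0.40 ± 0.12, without overlap). None of these 3 was called between the mutants, at -0.14 ± 0.24, -0.34 ± 0.29 and 0.31 ± 0.12.

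**Figure D5:**
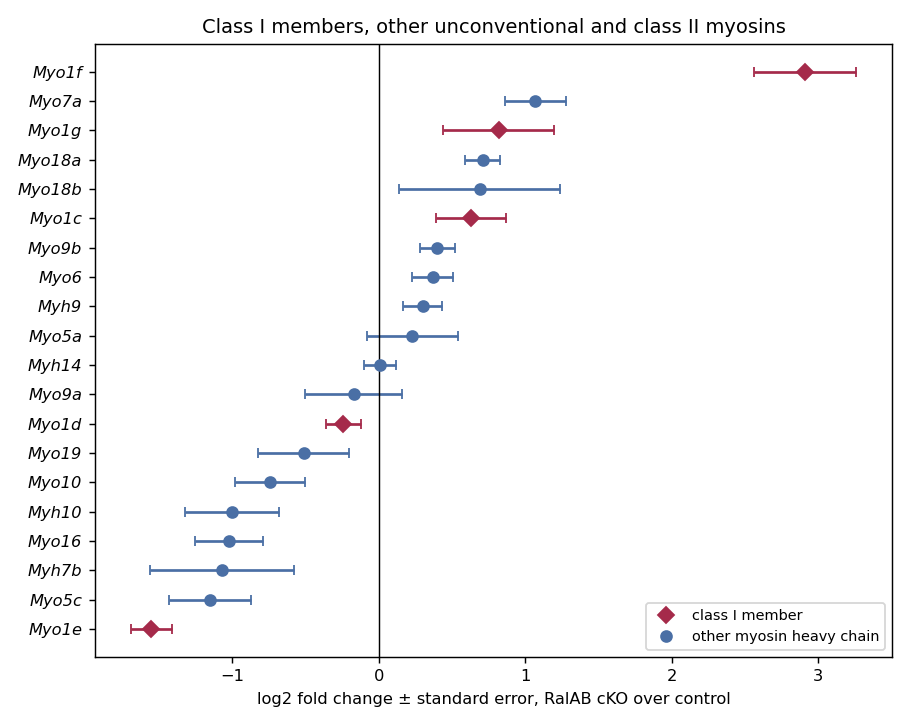
Points give the fitted log2 fold change of RalAB cKO over control (horizontal axis) and bars its standard error for the 5 class I members as diamonds and for the unconventional myosins of other classes and class II heavy chains that passed the filter as circles. Myo1f at 2.91 and Myo1e at -1.55 are the ends of the order.

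Class II heavy chains, the filament-forming motors, had 4 of 14 genes tested, of which 1 was called in RalAB cKO against control, beside 18.4% of all genes, and 3 in RalAB cKO against RalA cKO, beside 11.5%. In RalAB cKO against control Myh10 was called lower, by 1.99-fold, but lost the call in 13 of 26 settings, 9 of which left out 1 library. Myh10 was not called in RalA cKO against control (-0.88 ± 0.32, edgeR adjusted p = 0.129), nor between the mutants (-0.12 ± 0.32). Against RalA cKO 1 was called higher, Myh9 at 0.49 ± 0.13, and 2 lower, Myh14 at -0.38 ± 0.11 and Myh7b at -1.69 ± 0.49, and these lost the call in 5, 13 and 11 of 26 settings. For Myh9 these included leaving out RalA cKO 2, RalA cKO 4 or RalAB cKO 2, and for Myh14 and Myh7b leaving out any 1 of 8 and 7 libraries. Myh14 averaged 80.98 CPM in RalA cKO, 62.2 CPM in RalAB cKO and 61.8 CPM in control libraries, and was not called against control in RalA cKO (0.39 ± 0.11, edgeR adjusted p = 0.0698), where the groups did not overlap, nor in RalAB cKO (0.01 ± 0.11, edgeR adjusted p = 0.969). Myh9 averaged 39.0 CPM in RalA cKO, 54.7 CPM in RalAB cKO and 44.4 CPM in control libraries. Myh7b averaged 1.47 CPM in RalA cKO, 0.4545 CPM in RalAB cKO and 0.948 CPM in control libraries. Tropomyosins coat actin filaments, and 1 of 4 was called: Tpm1 fell to 36.2, 40.8, 32.9 and 37.1 CPM in RalAB cKO, against 62.6, 52.3, 70.1 and 53.5 CPM in control libraries (log2 -0.70 ± 0.13, edgeR adjusted p = 0.00141). It was also lower than in RalA cKO, by -0.67 ± 0.13 (edgeR adjusted p = 0.00194), and both calls held in all 26 settings.

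Calmodulins and myosin light chains had 11 of 21 tested. Calm2, which encodes calmodulin, fell in RalAB cKO against RalA cKO, with 111, 82.8, 108 and 96.9 CPM in RalAB cKO and 121, 137, 134 and 151 CPM in RalA cKO libraries (log2 -0.45 ± 0.11, edgeR adjusted p = 0.0115), a call that held in all 26 settings. The control libraries had 102.4, 110.3, 117.7 and 104.9 CPM. Against them Calm2 was not called in RalA cKO (0.32 ± 0.11, edgeR adjusted p = 0.105), where the groups did not overlap, nor in RalAB cKO (-0.13 ± 0.11, edgeR adjusted p = 0.449). Calm3 (-0.31 ± 0.09) was called in the same comparison and lost the call in 10 settings, 7 of which left out 1 library. Between these mutants 0 of the 11 were called higher and 2 lower, beside 4.50% of all genes called lower. Against control 1 of the 11 was called in RalAB cKO, beside 18.4% of all genes: Myl12a, higher at 0.50 ± 0.15, and it lost the call in 3 of 26 settings, among them without RalAB cKO 4 and without control 2.

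Among 11 partners of the long-tailed forms, 3 rose and 0 fell in RalAB cKO against control, with a list median of 0.09, beside 9.39% of all genes called higher and 9.02% lower. Sh3bp2, whose human product binds MYO1F in mast cells, rose to 19.6, 20.9, 23.2 and 25.6 CPM in RalAB cKO, against 6.42, 5.31, 7.56 and 6.001 CPM in control libraries (log2 1.81 ± 0.19, edgeR adjusted p = 2.25e-05). In RalA cKO it had 10.4, 9.37, 12.3 and 17.4 CPM, also above every control library (log2 0.96 ± 0.19, edgeR adjusted p = 0.0159). That call was lost without RalA cKO 4, without control 2 and with summed Y-linked expression as a covariate, over a range of 0.75 to 1.08. Between the mutants the difference was 0.85 ± 0.19 (edgeR adjusted p = 0.00581).

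Was, a haematopoietic activator of actin branching, had 2.90, 3.59, 5.91 and 4.64 CPM in RalAB cKO, against 1.11, 1.35, 2.00 and 1.18 CPM in control libraries (log2 1.58 ± 0.34, edgeR adjusted p = 0.00429). In the same comparison 19 of 20 microglia and macrophage markers were called higher, beside 9.39% of all genes. The part of these markers in the values of Was and Sh3bp2 was not tested. Dnm3, a dynamin that pinches off vesicles, had 218, 221, 229.7 and 243 CPM in RalAB cKO, against 158, 156, 162 and 178 CPM in control libraries (log2 0.48 ± 0.09, edgeR adjusted p = 0.00116). It also exceeded RalA cKO, by 0.27 ± 0.09 (edgeR adjusted p = 0.048), a call lost in 16 of 26 settings, 11 of which left out 1 library.

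The targeted genes gave only a partial check of the genotypes, since the exons between the flox sites are not given in the sources used here and reads of the remaining exons still count. Rala had 33.1, 42.4, 42.7 and 41.8 CPM in RalA cKO, 42.9, 32.2, 39.8 and 36.1 CPM in RalAB cKO, and 35.5, 59.3, 47.0 and 56.3 CPM in control libraries. Its log2 difference from control was -0.31 ± 0.15 in RalA cKO (edgeR adjusted p = 0.2365) and -0.39 ± 0.15 in RalAB cKO (edgeR adjusted p = 0.0832), and over the alternatives these p-values ranged from 0.0305 to 0.535 and from 0.00397 to 0.249. Without control 1 or without RalAB cKO 1 Rala was called lower in RalAB cKO. In TPM both mutant groups lay below every control library but overlapped each other, with 21.8 ± 2.98 in RalA cKO, 22.1 ± 4.33 in RalAB cKO and 37.2 ± 3.65 in control libraries. Ralb averaged 15.4 ± 2.35 CPM in RalA cKO, 15.8 ± 1.32 CPM in RalAB cKO and 19.2 ± 3.38 CPM in control libraries, so its gene total did not separate RalAB cKO from RalA cKO.

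Of the 11 Ral and exocyst genes edgeR called 0 in each comparison, with medians of -0.04, -0.05 and -0.05. At an unadjusted p under 0.05 there were 0 in RalA cKO against control, 1 when RalAB cKO was set against control and 2 between the mutants. DESeq2 called 0, 0 and 1 of them, limma-voom 0 in each, and limma-voom with quality weights 0, 1 and 1. Over all genes the quality weights called 1736, 4061 and 2560, and DESeq2 called 1083 in RalA cKO against control. Exoc7, whose product binds phosphoinositides at the plasma membrane, had 64.7 ± 9.60 TPM in RalAB cKO and 85.8 ± 14.4 TPM in control libraries, at a log2 count difference of -0.05 ± 0.12. Exoc3, a core exocyst subunit, had 52.3 ± 5.995 TPM in RalAB cKO and 55.3 ± 9.56 TPM in control libraries, at a log2 count difference of 0.07 ± 0.08.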

How the data were processed

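RNA of sorted spinal cord cells from 12 mice was sequenced, 1 library a mouse, with a stranded mRNA kit per the labels. The authors' deposited files list the transcripts with their estimated counts, TPM values and effective lengths. GRCm38.p6, kallisto 0.44 and Trimmomatic 0.36 are named, per the submitters' processing notes, without the step they served.

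GENCODE vM21 gave a gene for 121104 of 121843 transcripts. Estimated counts were summed over 35675 genes and rounded, and TPM was summed. The 739 unmatched transcripts held 0.218% to 0.277% of counts. Depth ranged from 10928206 to 15440437 counts. R 4.3.3 with edgeR 4.0.16 fitted all 12 libraries with 1 mean per genotype (filter: minimum count 10, total 15; TMM scaling; robust quasi-likelihood F test; Benjamini-Hochberg adjustment over 13456 genes, threshold 0.05). Standard errors were taken as the log2 fold change over the root of F. Single-gene CPM was scaled by TMM. Similar genes were ranked on log2 CPM with a prior count of 2, among genes of at least 5 CPM, or 1 CPM for Myo1g. RalA cKO and RalAB cKO were set against the same control libraries.

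The members and lists were chosen with earlier results of these data known. Named from each list were up to 4 called genes with the smallest p in a comparison or, with no call, the 2 of highest TPM. Libraries of a group were checked for duplication and all 18 pairs differed beyond sampling noise. Alternatives were other scaling, filters, DESeq2 1.42.0, limma-voom 3.58.1, only the groups compared, a replicate block, length offsets, a Y-linked covariate and each library left out, with 3 more (coding transcripts only, control 1 and RalAB cKO 1 both left out, the microglia and macrophage list left out) chosen after seeing the data. The fit was tested on simulated data. Results for some genes are not reported here.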

Additional observations from a re-analysis of the deposited data

Results flagged for a closer look

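In a group of 4 libraries a value stood apart when its gap to the nearest other, divided by the range of the group, exceeded Dixon's critical value. Among 36 groups of member values looked at 2 did so, where chance gives about 1 in 20. Myo1g reached 3.228 TPM in RalAB cKO 2, while the other RalAB cKO libraries had 1.308 to 1.613 TPM, and its CPM there (2.21) was inside the range of its group. Per 100 microglia and macrophage marker counts, Myo1g gave 0.123 in control 3, while the other control libraries gave 0.3446 to 0.3516. Control 3 had the highest summed level of those markers among the control libraries, 711.3 CPM, and 0.875 CPM of Myo1g.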

How the results depend on the processing

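Of 390 member differences (15 per setting, 23 planned and 3 added settings) 384 moved by less than the spread between replicates and 0 of those called changed sign. The others were, with length offsets, Myo1f at 0.64 in RalA cKO against control and 2.26 in RalAB cKO against RalA cKO, and Myo1c at 1.03 and Myo1g at 1.26 in RalAB cKO against control; and, with coding transcripts only, Myo1g at -1.84 in RalA cKO against control and at 3.02 in RalAB cKO against RalA cKO. The cause was not tested. Genes called in RalA cKO against control numbered 374, but 1083 with DESeq2, 1736 with quality weights, 93 with the Y-linked covariate, 1693 without control 1 and RalAB cKO 1 together, and 85 (without RalA cKO 4) to 947 (without control 1) with 1 library left out. In RalAB cKO against control they numbered 2478, but 4061 with quality weights, 3962 without both libraries, and 1605 (without RalAB cKO 4) to 3209 (without RalAB cKO 1) with 1 left out. In RalAB cKO against RalA cKO they numbered 1551, but 2560 with quality weights, and 1117 to 1678 with 1 left out. By library totals alone the median of all genes was -0.138 on the log2 scale in RalA cKO against control, and the calls split into 176 higher and 250 lower, beside 230 and 144 with TMM; in RalAB cKO against control they split into 1002 and 1419, beside 1264 and 1214. Deviations of same-numbered mice had correlations of -0.198 to 0.175, and every pair of RalA cKO and control was positive, at 0.062 to 0.175. Mice of different numbers were not correlated as a reference, so these values cannot decide whether the numbers mark pairs. The replicate block gave 232 calls in RalA cKO against control. Depth limits Myo1g most, with 28 counts in RalA cKO, and Myo1a and Myo1h were too scarce to test.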
